A study of Mus musculus with 144 samples.

Results

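The 10 genes described here are those of hepatic fatty acid synthesis and its transcription factors: the factors *Srebf1* and *Mlxipl*, and the enzymes *Acly*, *Me1*, *Acaca*, *Acacb*, *Fasn*, *Elovl6*, *Scd1* and *Scd2*. They were chosen by name, not by their values, and matched by Ensembl identifier to 10 of the 55359 genes counted in each library (*Srebf1* ENSMUSG00000020538, *Mlxipl* ENSMUSG00000005373, *Acly* ENSMUSG00000020917, *Me1* ENSMUSG00000032418, *Acaca* ENSMUSG00000020532, *Acacb* ENSMUSG00000042010, *Fasn* ENSMUSG00000025153, *Elovl6* ENSMUSG00000041220, *Scd1* ENSMUSG00000037071 and *Scd2* ENSMUSG00000025203). In the liver, surplus carbohydrate is exported from mitochondria as citrate, which ATP citrate lyase (*Acly*) cleaves to acetyl-CoA. Acetyl-CoA carboxylases (*Acaca*, *Acacb*) make malonyl-CoA, fatty acid synthase (*Fasn*) builds palmitate with NADPH supplied in part by malic enzyme (*Me1*), *Elovl6* elongates palmitate to stearate, and the stearoyl-CoA desaturases (*Scd1*, *Scd2*) introduce a double bond. SREBP-1 (*Srebf1*), which responds to insulin, and ChREBP (*Mlxipl*), which responds to glucose, are the transcription factors best known for driving these enzymes, and the insulin in the culture medium used here is one of their known inputs.

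The study asked how loss of one binding site of the aryl hydrocarbon receptor changes the response of mouse hepatocytes to TCDD (2,3,7,8-tetrachlorodibenzo-p-dioxin), a ligand of that receptor. Primary hepatocytes came from male C57BL/6NCrl mice labelled 28 days old, either wild type (WT) or PkmΔDRE, a germline deletion of a dioxin response element (DRE) in an intron of the pyruvate kinase gene *Pkm*. After attachment the cells were held in Williams' medium E with insulin, transferrin and selenium, ascorbic acid, dexamethasone and antibiotics, and received 10 nM TCDD or DMSO vehicle for 2, 4, 8 or 12 h, for 24 or 48 h, or for 72, 96 or 120 h. RNA-seq gave 4 libraries in every one of 36 groups, which differ in genotype, treatment or hour. All groups shared dexamethasone and insulin, and all were plated cells on collagen, a culture in which hepatocytes lose liver functions with time. PkmΔDRE mice carried the deletion in every cell, and the labels do not say which mice, isolations or wells gave which library. The p-values below therefore measure only the spread between these libraries, which may be technical.

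Between 13588848 and 30719161 read pairs per library fell on genes (median 18011825), and levels are given as CPM, counts brought to a common library size with edgeR's TMM scaling over all libraries, which sets levels against the bulk of genes. *Cyp1a1*, the classical target of the receptor, had a median of 3.23 CPM in WT-labelled vehicle and 3460 CPM in WT-labelled TCDD libraries, and of 3.47 and 4260 CPM under the PkmΔDRE label. Single WT-labelled libraries went against their treatment. *Cyp1a1* stood at 3285 CPM in vehicle replicate 1 of 48 h (at most 2.37 CPM in the others of its group) and 1717 CPM in vehicle replicate 3 of 96 h (at most 114.1), and at 29.22 CPM in TCDD replicate 4 of 72 h (at least 3386), 10.17 CPM in TCDD replicate 4 of 4 h (at least 126.5) and 1.154 CPM in TCDD replicate 4 of 2 h (at least 6.242). Without 4 of these, all but that of 4 h, and without TCDD replicate 1 of 96 h, no call of the 10 genes changed. *Pkm* did not show the difference that the genotype labels name. At 8, 12 and 24 h its log2 fold change with TCDD was 1.24, 1.68 and 1.34 under the PkmΔDRE label (edgeR adjusted p = 0.128, 0.129 and 1) and -0.49, 0.17 and 0.01 under the WT label. Groups are therefore named by label, and directions between labels hold for the labels only. When each library was set against the mean profile of all other libraries of each hour over 8123 genes, 29 were nearest to a neighbouring hour, 3 to one further away and the rest to their own. The PkmΔDRE-labelled vehicle library 4 of 4 h was nearest to 96 h (Spearman's rho 0.956, against 0.63 with 4 h), and library 4 of 96 h was nearest to 4 h (0.958, against 0.6). Values that rest on these libraries are given with and without them, and their treatment or hour was not reassigned. Summed CPM of 8 hepatocyte markers in WT-labelled vehicle fell from 156000 (129000 to 174000) at 2 h to 9180 (3010 to 16700) at 120 h, while 4 cholangiocyte markers went from 15.6 to 696 CPM and 6 stellate cell markers from 2.23 to 89.2 CPM. Macrophage markers fell from 218 to 65.5 CPM and endothelial markers from 288 to 65.2 CPM over the same hours. Of the cholangiocyte markers, the highest library had 1200 CPM for *Spp1*, 300 for *Krt19*, 52.3 for *Krt7* and 6.68 for *Epcam*. Of the markers of adipocytes, the other main lipogenic cell, *Adipoq* stood at 0 counts in 106 libraries. In bulk RNA, fewer cells of a type and less RNA per cell cannot be told apart.

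Promoters of 6 of the genes that the results turn on are shown, as the 250 bases before the RefSeq start on GRCm38.p6, 5′ to 3′ on the gene's strand. Capitals mark matches on either strand to 4 letter strings: the E-box CACGTG bound by ChREBP among many factors, TCACCC (a core of sterol response elements), CCAAT, and GCGTG (the DRE core). Of 32851 mouse promoter windows of this length, 6.02% held the E-box string, 13.8% the TCACCC string, 33.8% CCAAT and 28.2% the DRE core. The windows lie at chr11:120824548-120824797 (*Fasn*, minus strand), chr11:100528001-100528250 (*Acly*, minus), chr11:60210472-60210721 (*Srebf1*, minus, one of 3 annotated starts), chr5:135089640-135089889 (*Mlxipl*, plus, one of 2), chr5:114165268-114165517 (*Acacb*, plus) and chr3:129532136-129532385 (*Elovl6*, plus).
Fasn: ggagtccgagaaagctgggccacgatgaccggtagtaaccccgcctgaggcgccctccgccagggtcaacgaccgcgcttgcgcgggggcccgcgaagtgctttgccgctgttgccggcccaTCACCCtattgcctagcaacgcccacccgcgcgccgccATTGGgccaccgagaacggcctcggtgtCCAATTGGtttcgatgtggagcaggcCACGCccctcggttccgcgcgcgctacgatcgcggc
Acly: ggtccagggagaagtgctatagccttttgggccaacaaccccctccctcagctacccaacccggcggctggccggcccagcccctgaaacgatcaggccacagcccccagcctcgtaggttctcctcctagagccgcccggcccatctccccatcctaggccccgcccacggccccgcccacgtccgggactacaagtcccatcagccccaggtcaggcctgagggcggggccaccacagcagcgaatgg
Srebf1: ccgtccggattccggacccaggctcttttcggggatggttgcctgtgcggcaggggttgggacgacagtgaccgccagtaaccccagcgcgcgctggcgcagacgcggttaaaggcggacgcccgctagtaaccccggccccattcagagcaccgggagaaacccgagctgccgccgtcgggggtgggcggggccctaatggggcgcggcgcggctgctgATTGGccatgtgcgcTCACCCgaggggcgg
Mlxipl: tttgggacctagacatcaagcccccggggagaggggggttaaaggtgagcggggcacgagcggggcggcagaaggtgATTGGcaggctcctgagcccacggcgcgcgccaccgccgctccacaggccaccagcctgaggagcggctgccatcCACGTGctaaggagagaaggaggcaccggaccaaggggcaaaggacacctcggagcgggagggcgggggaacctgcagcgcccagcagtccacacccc
Acacb: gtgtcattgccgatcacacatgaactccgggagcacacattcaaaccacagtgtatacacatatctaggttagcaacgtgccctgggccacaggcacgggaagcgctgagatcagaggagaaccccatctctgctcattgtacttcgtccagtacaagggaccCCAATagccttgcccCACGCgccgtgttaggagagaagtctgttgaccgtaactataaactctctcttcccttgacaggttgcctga
Elovl6: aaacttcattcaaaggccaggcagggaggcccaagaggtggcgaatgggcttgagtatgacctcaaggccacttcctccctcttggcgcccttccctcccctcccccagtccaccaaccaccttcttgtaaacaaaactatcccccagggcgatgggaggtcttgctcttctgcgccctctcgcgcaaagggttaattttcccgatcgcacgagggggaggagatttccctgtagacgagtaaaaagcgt

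The *Fasn* window held TCACCC at positions -128 to -123 from the start, CCAAT strings at -90 to -86, -62 to -58 and -59 to -55 (the last pair share bases), and a DRE core at -36 to -32. The shown *Srebf1* window held TCACCC at -15 to -10 and CCAAT at -30 to -26, the *Mlxipl* window the E-box string at -98 to -93 and CCAAT at -173 to -169, and the *Acacb* window CCAAT at -87 to -83 and a DRE core at -72 to -68. No searched string was in the *Acly* or *Elovl6* windows, nor in that of *Acaca*, and the *Me1* window at chr9:86695915-86696164 held TCACCC at -102 to -97. Of the other annotated windows, that of *Mlxipl* at chr5:135106641-135106890 held 3 DRE cores, at -130 to -126, -82 to -78 and -47 to -43, and those of *Me1* at chr9:86687278-86687527 and *Srebf1* at chr11:60222582-60222831 held a CCAAT string each. Windows were found for 8 of the 10 genes, and *Scd1* and *Scd2* had none in the table used. A match describes letters in a window and is neither a binding site nor a cause of what follows.

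In vehicle-treated hepatocytes most lipogenic transcripts fell with time in culture relative to other genes, while *Scd1* and *Scd2* moved in opposite directions. By 120 h under the WT label 7 of the 10 genes were lower than at 2 h (*Fasn*, *Acaca*, *Acacb*, *Scd1*, *Acly*, *Srebf1* and *Mlxipl*) and *Scd2* was higher, and under the PkmΔDRE label 6 were lower, the same genes apart from *Srebf1*, and *Scd2* was again higher. *Fasn*, *Acacb*, *Acly* and *Scd1* were also lower, and *Scd2* higher, as plain shares of each library's total, whereas *Acaca*, *Mlxipl* and *Srebf1* were not. A gene was called when edgeR's quasi-likelihood test gave a Benjamini-Hochberg adjusted p below 0.05 over all genes tested and the fold change was at least 1.5. Under the WT label 7 genes were lower and 0 higher at 8 h against 2 h (31.9% of all tested genes were called, 16% as lower), 6 lower and 1 higher at 24 h (45.8% called, 20% lower), 7 lower and 2 higher at 72 h (53.8%, 22.8% lower) and 7 lower and 1 higher at 120 h (57.9%, 24.5% lower). Under the PkmΔDRE label the counts were 1 lower and 0 higher at 8 h (11% of all genes called, 5.5% lower), 6 and 0 at 24 h (33.2%, 15.2% lower), 6 and 2 at 72 h (42.3%, 19.5% lower) and 6 and 1 at 120 h (49.4%, 22.7% lower). Some PkmΔDRE-labelled calls were lost in part of the 8 fits that left out 1 library. *Acaca* lost its call in 7 of them at 72 h and 5 at 120 h. *Fasn* and *Acacb* at 24 h lost theirs in 4 each, and *Mlxipl* at 8 h in 3. The median log2 fold change of the 10 genes at 120 h was -1.33 under the WT label and -1.22 under the PkmΔDRE label, where the medians over all genes were 0.21 and 0.24. The scaling decides part of this. Scaled to library totals without TMM factors, an alternative added after the data were seen, the median gene itself rose by 1.43 at 120 h under the WT label and by 1.57 under the PkmΔDRE label, so that 86.6% and 87.3% of the called genes were higher there, against 57.6% and 54.1% with TMM. At the other 3 hours 76.7 to 84.9% (WT label) and 86 to 90.3% (PkmΔDRE label) of called genes were higher on library totals, against 49.9 to 57.7% and 50.1 to 54.3%. Of the 10 genes, 16 calls over the 4 hours were lower and 7 higher on library totals under the WT label, against 27 and 4 with TMM, and 10 and 7 under the PkmΔDRE label, against 19 and 3. On that scale *Fasn* changed by -1.42 and -1.09, *Acly* by -1.52 and -1.32, *Acacb* by -2.91 and -3.28, *Scd1* by -2.17 and -4.42 and *Scd2* by 5.77 and 6.22, all called. *Acaca* (-0.01 and 0.52), *Mlxipl* (-0.29 and -0.28) and *Srebf1* under the WT label (0.37) lost their calls on that scale, while *Me1* (1.67 and 1.76) and *Srebf1* under the PkmΔDRE label (0.78) were called as higher. Values below are on the TMM scale, and a fall of these genes is a fall relative to the other genes. Some culture hours are said below not to overlap for a gene. The share of all genes for which this held was not computed, so such statements describe levels only.

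**Figure D1:**
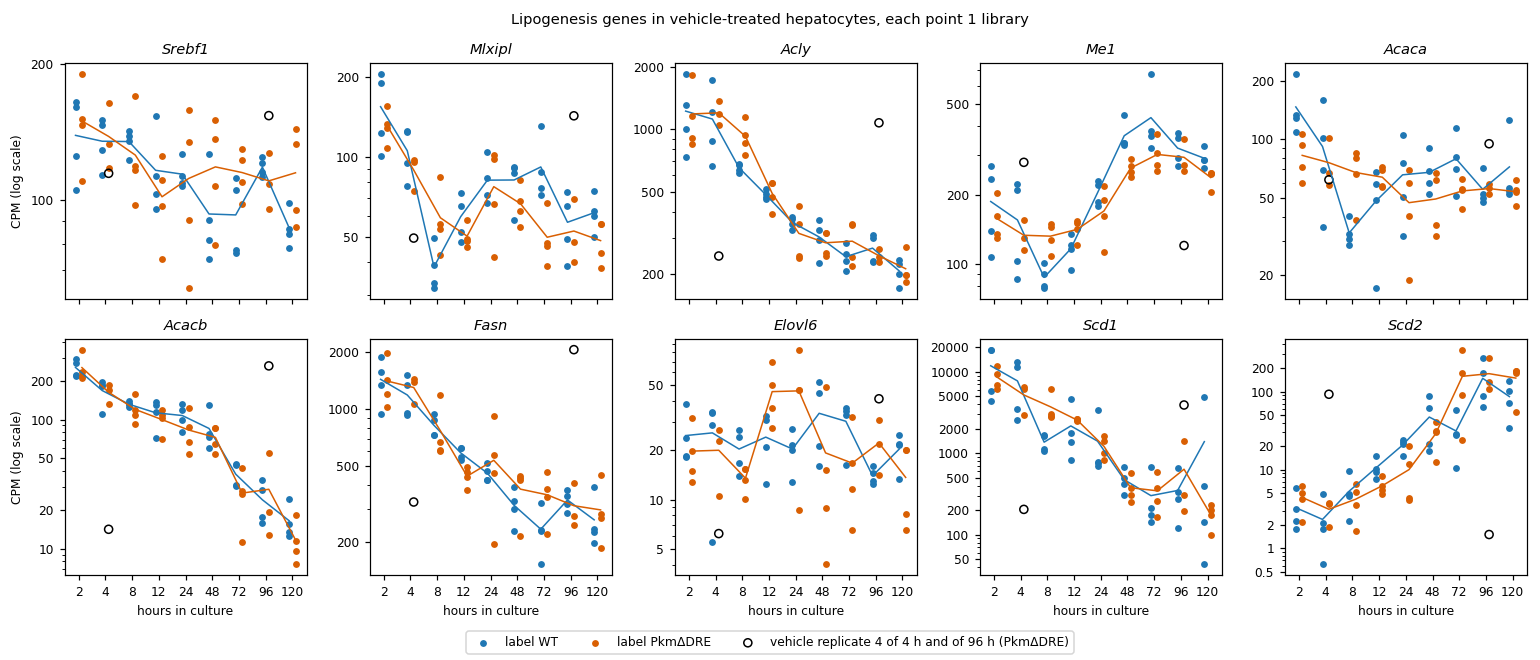
Level of each of the 10 genes (CPM, log axis) in vehicle-treated hepatocytes by hours in culture, with 1 point per library and lines through the group means for each genotype label; open circles, left out of the lines, are the 2 PkmΔDRE-labelled libraries that resembled another hour. On this TMM scale *Scd1*, *Acly*, *Fasn* and *Acacb* descend, as they do on library totals at 120 h, *Scd2* climbs from 6.206 CPM or less at 2 h to 33.97 CPM or more at 120 h, and *Elovl6* has no steady course.

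Of the transcription factors, *Mlxipl* fell early and *Srebf1* by less. *Mlxipl* stood at 123.04, 100.3, 205.8 and 189.1 CPM in the 4 WT-labelled vehicle libraries at 2 h and at 33.42, 31.85, 49.32 and 38.98 CPM at 8 h. The 8 h libraries all lay below the 2 h libraries, a log2 fold change of -1.99 (SE 0.23, edgeR adjusted p = 3.25e-08) that was -1.58 and still called on library totals, after which the mean was 91.5 CPM at 72 h. *Mlxipl* was the only one of the 10 genes called at 8 h under the PkmΔDRE label (log2 fold change -1.20, SE 0.32, edgeR adjusted p = 0.0123), which was -0.58 and not called on library totals, and at 120 h it was lower under both labels on the TMM scale (-1.49 and -1.64). *Srebf1* read 105.3, 125.4, 160.4 and 165.2 CPM at 2 h and 83.91, 78.17, 86.38 and 98.6 CPM at 120 h under the WT label. Its log2 fold change of -0.85 (SE 0.17, edgeR adjusted p = 6.96e-05) was lost when the share of read pairs on no gene entered the fit as a covariate and turned to 0.37 on library totals, and under the PkmΔDRE label *Srebf1* missed the threshold at all 4 hours (-0.59 at 120 h, edgeR adjusted p = 0.0655).

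The enzymes that supply acetyl-CoA and NADPH moved apart. *Acly* read 735.1, 1006, 1304 and 1854 CPM at 2 h and 171, 233.8, 223.9 and 201.4 CPM at 120 h in WT-labelled vehicle, and 1838, 1156, 907.4 and 846.8 CPM against 198.4, 183.7, 199.3 and 269.5 CPM under the PkmΔDRE label. No library at 120 h came near the lowest at 2 h, and the log2 fold changes were -2.73 (SE 0.22, edgeR adjusted p = 1.8e-12) and -2.69 (SE 0.46, edgeR adjusted p = 2.86e-05). *Me1*, in contrast, was lower than at 2 h at 8 h under the WT label (-1.08, SE 0.24, edgeR adjusted p = 0.000636) and higher at 72 h (1.04, SE 0.24, edgeR adjusted p = 0.000432). Its WT-labelled group means were 187.1 ± 76.2 CPM at 2 h, 87.2 ± 10.4 CPM at 8 h, 434.9 ± 163 CPM at 72 h and 289 ± 27.1 CPM at 120 h (SD, n = 4), and at 120 h the change against 2 h was not called (0.47, edgeR adjusted p = 0.0871). *Me1* was called only at 72 h under the PkmΔDRE label (0.75, SE 0.25, edgeR adjusted p = 0.0179), and both 72 h calls were lost when a trend on GC content was removed and kept on library totals (2.00 and 1.88).

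The 2 acetyl-CoA carboxylases differed in size of change. *Acacb*, the form on the outer mitochondrial membrane whose malonyl-CoA restrains fatty acid oxidation, read 218.8, 276.1, 221.9 and 295 CPM at 2 h and 12.55, 24.4, 13.43 and 15.45 CPM at 120 h in WT-labelled vehicle. Every library at 120 h was far below every library at 2 h, a log2 fold change of -4.12 (SE 0.29, edgeR adjusted p = 9.01e-14), and under the PkmΔDRE label it was -4.63 (SE 0.72, edgeR adjusted p = 1.01e-05). *Acaca*, the cytosolic form that feeds synthesis, changed by -1.18 (SE 0.37, edgeR adjusted p = 0.00617) and -0.80 (SE 0.31, edgeR adjusted p = 0.0326) over the same interval, values that were near 0 or above it on library totals, and its WT-labelled low point was at 8 h (-2.12, SE 0.38, edgeR adjusted p = 4.1e-05, and -1.72 and still called on library totals). The *Acaca* libraries at 120 h overlapped those at 2 h under both labels. Its 120 h call under the PkmΔDRE label was lost in 5 of 8 fits that left out 1 library. Per kilobase of transcript, *Acacb* made up a mean 65.4% of the sum of both carboxylases at 2 h and 20.5% at 120 h under the WT label, and 76.2% and 18.9% under the PkmΔDRE label.

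*Fasn*, the central enzyme of the pathway, read 946.9, 1561, 1342 and 1878 CPM at 2 h and 197.6, 390.5, 227.2 and 234.3 CPM at 120 h in WT-labelled vehicle. With the PkmΔDRE label the libraries stood at 1979, 1197, 1415 and 1023 CPM and at 267.9, 186, 280.2 and 449.4 CPM. The groups did not overlap under either label, and the log2 fold changes were -2.62 (SE 0.23, edgeR adjusted p = 1.46e-11) and -2.45 (SE 0.55, edgeR adjusted p = 0.000626). *Elovl6*, the elongase, was not called in any of the 8 comparisons of culture time, with WT-labelled vehicle means between 13.99 and 33.75 CPM over the 9 hours. With the GC trend removed it was called as lower at 120 h under both labels (-1.24 and -1.50), and on library totals as higher at 72 h under the WT label (1.10) and at 24 h under the PkmΔDRE label (2.06).

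*Scd1*, the form that dominates in liver, read 4423, 5813, 18753 and 18543 CPM at 2 h, 144.2, 212.8, 675.4 and 173.4 CPM at 72 h and 142.2, 4974, 43.23 and 396.5 CPM at 120 h in WT-labelled vehicle. The 72 h libraries all lay below 2 h (log2 fold change -5.47, SE 1.02, edgeR adjusted p = 3.07e-05), whereas at 120 h library 2 of that group stood within the 2 h range and the rest far below it. The change at 120 h was -3.23 (SE 0.91, edgeR adjusted p = 0.00288), and it was -6.07 without that library. Under the PkmΔDRE label *Scd1* read 11831, 6965, 6150 and 9481 CPM at 2 h and 100.1, 173.6, 230.4 and 198.1 CPM at 120 h, a log2 fold change of -5.82 (SE 0.82, edgeR adjusted p = 3.99e-06).

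*Scd2*, the form best known from brain and from developing tissue, moved the other way. It read 5.943, 3.199, 1.78 and 2.221 CPM at 2 h and 102.2, 72.3, 33.97 and 136.1 CPM at 120 h in WT-labelled vehicle, and 5.133, 6.206, 2.16 and 4.27 CPM against 55.3, 170.1, 183.2 and 185.1 CPM under the PkmΔDRE label. All libraries at 120 h were above all libraries at 2 h, with log2 fold changes of 4.54 (SE 0.64, edgeR adjusted p = 3.67e-07) and 4.88 (SE 1.08, edgeR adjusted p = 0.000517). Cholangiocyte and stellate cell markers rose over the same hours and macrophage and endothelial markers fell, as given above. The part of these cell types in the level of *Scd2* was not tested.

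A ratio within a library does not depend on the scaling. Per kilobase of transcript, *Scd2* was a mean 0.0467% of the sum of both desaturases at 2 h (0.00841 to 0.119%) in WT-labelled vehicle, 1.89% at 24 h, 12.4% at 72 h, 27.8% at 96 h (21.9 to 31.8%) and 26.1% at 120 h (1.27 to 41%, the lowest being the library with high *Scd1*). Under the PkmΔDRE label the vehicle share went from 0.0471% at 2 h to 24.4% at 72 h and 41.5% at 120 h (32.9 to 46.5%). With TCDD the share was 10.2% at 96 h (9.06 to 11%) under the WT label, below all vehicle libraries of that hour, and 14.8% at 120 h (10.2 to 24.1%) under the PkmΔDRE label, again below all vehicle libraries. *Scd1* levels were the part of this ratio that differed in those groups, as described under TCDD.

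**Figure D2:**
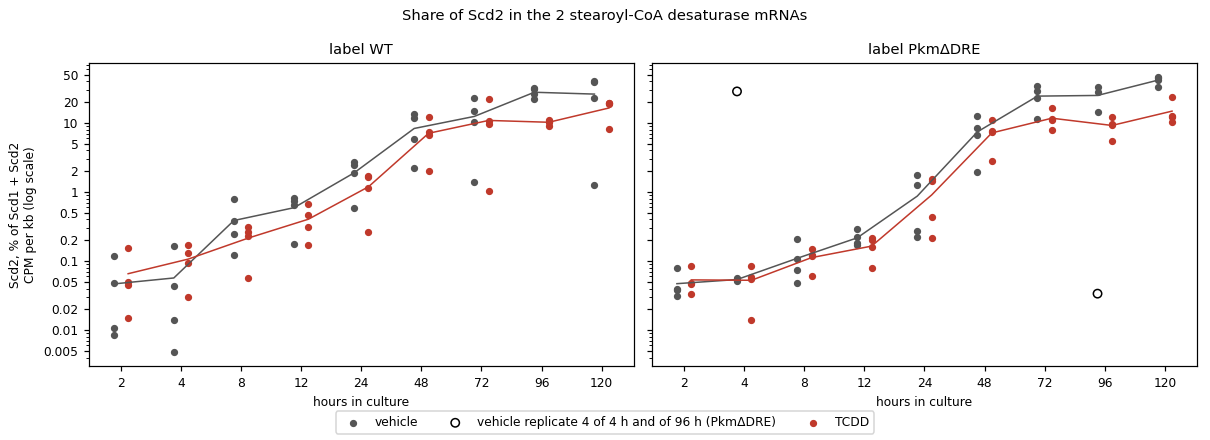
Share of *Scd2* in the sum of *Scd1* and *Scd2* (percent of CPM per kilobase, log axis) by hour, with 1 point per library for vehicle and TCDD under each genotype label, lines through the group means and open circles for the 2 vehicle libraries that resembled another hour; all groups climb from at most 0.153% at 2 h, and the late TCDD points lie under the vehicle points at 96 h (WT label) and 120 h (PkmΔDRE label).

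The order of the genes on a per-length scale changed accordingly. In WT-labelled vehicle at 2 h *Scd1* led with 2459 CPM per kilobase, before *Acly* (276.8), *Fasn* (142.5), *Me1* (56.8), *Mlxipl* (42.7), *Srebf1* (32.4), *Acacb* (28.8), *Acaca* (15.4), *Elovl6* (4.14) and *Scd2* (0.602). *Srebf1* and *Acacb* were close neighbours whose libraries overlapped in level per kilobase. At 120 h under the WT label *Scd1* still led on the mean (287.5), which rested on the library with 4974 CPM, before *Me1* (87.79) and *Acly* (46.88), and *Scd2* ranked 7th (15.79). At 120 h under the PkmΔDRE label *Me1* led (72.3 CPM per kilobase), before *Acly* (48.1) and *Scd1* (36.3), *Scd2* ranked 5th (27.2) and *Acacb* last (1.33).

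On average over the hours, the genotype labels did not separate the 10 genes in vehicle. Averaged over the 9 hours, 0 of 10 were called between PkmΔDRE- and WT-labelled vehicle by edgeR, where 1.2% of all genes were called, and DESeq2 also called 0. An unadjusted p below 0.05 was found for 0 of the 10 and for 15.9% of all genes. Log2 differences ranged from -0.15 (*Mlxipl*, SE 0.09) to 0.43 (*Scd2*, SE 0.26), and label and hepatocyte isolation cannot be told apart. Labels were not tested against each other at single hours. At 8 h vehicle *Scd1* read 1066 to 1672 CPM under the WT label and 2777 to 6216 CPM under the PkmΔDRE label. *Acly* (617.2 to 682.8 and 748.6 to 1152 CPM) and *Me1* (78.08 to 100.4 and 108.1 to 149.2 CPM) did not overlap either, and the other members did. At 2 h only *Acaca* did not overlap (108.85 to 216.8 and 59.34 to 106.6 CPM). Ranges were also separate at later hours, in part in the other direction. *Me1* was higher under the WT label at 48 h (329.9 to 447.1 and 240.2 to 288.2 CPM) and 120 h (260.8 to 326.1 and 206.1 to 249.8 CPM). The share of all genes with separate ranges between labels was not computed, so these ranges describe levels only.

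Against these changes in culture, TCDD moved few of the genes, and most of those called were higher. Under the WT label, values that passed the p threshold but not the fold change of 1.5 were all lower, and are given below. Under the WT label 4 of 10 were higher and 0 lower at 8 h, where 37.4% of all genes were called and 23.8% were called as higher, and 3 were higher and 1 lower at 96 h, where 15.1% of all genes were called. At 8 h the share of the 10 that was called was thus close to that of all genes. Of all called genes at 8 h 63.6% were higher with TMM and 79.9% on library totals, where the same 4 of the 10 were called. By edgeR 0 of 10 were called under the WT label at 2 h (0% of all genes called), 4 h (0%), 12 h (0.0321%), 24 h (0.373%), 48 h (0.00763%), 72 h (0%) and 120 h (1.46%), with 0, 2, 0, 1, 2, 1 and 1 of the 10 at an unadjusted p below 0.05, and DESeq2 called *Elovl6* at 24 h among these. Under the PkmΔDRE label edgeR called 1 of 10 at 120 h (0.633% of all genes) and 0 at 2 h (0%), 4 h (0%), 8 h (0.106%), 12 h (0.024%), 24 h (0.016%), 48 h (0.404%), 72 h (1.13%) and 96 h (0.0793%). At those 8 hours 1, 1, 1, 2, 0, 2, 3 and 2 of the 10 had an unadjusted p below 0.05, and DESeq2 called *Elovl6* at 2 and 8 h and *Scd1* at 72 h. The share of all genes at an unadjusted p below 0.05 was 1.37, 17.1, 2.63, 12.3, 2.57, 2.06 and 16.1% at the WT-labelled hours without a call. At the PkmΔDRE-labelled hours without a call it was 14.2, 2.4, 4.78, 9.53, 1.29, 6.62, 10.7 and 7.2%, each in order of hour.

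**Figure D3:**
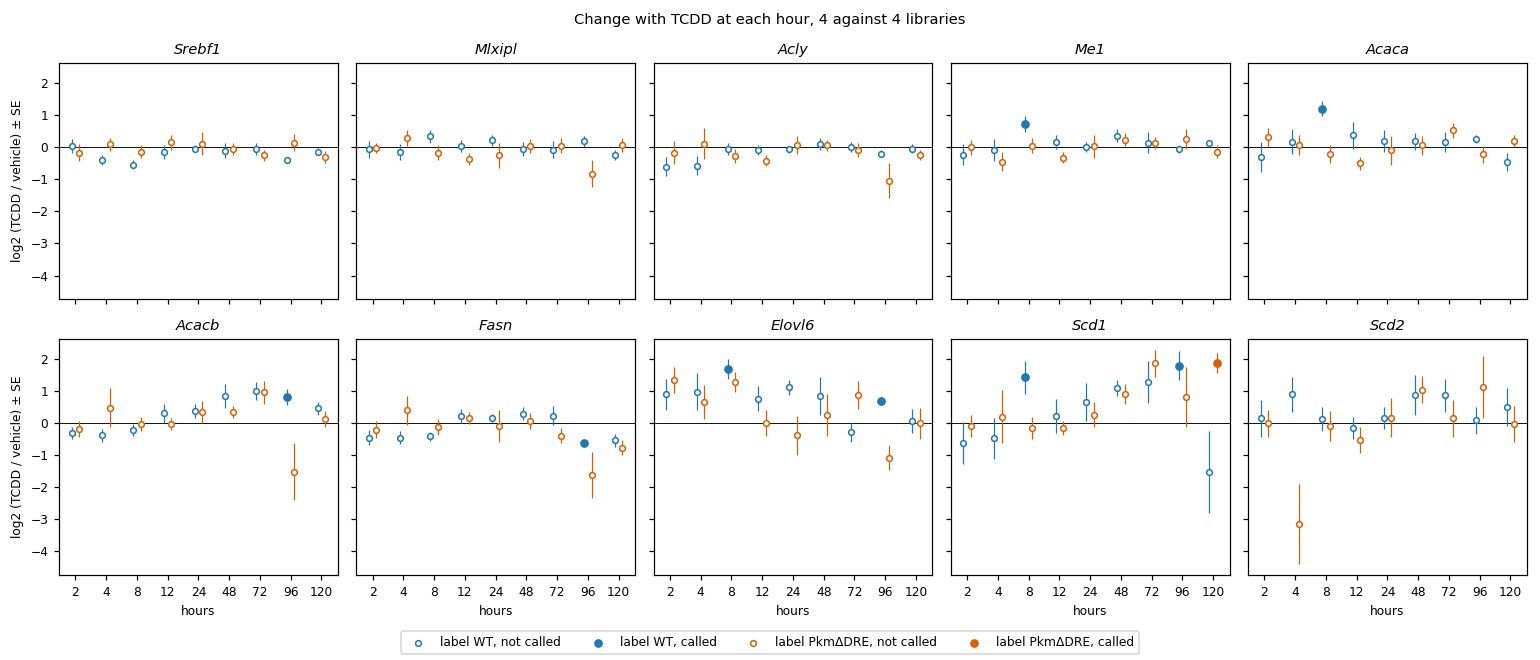
Log2 fold change of TCDD against vehicle for each of the 10 genes at each hour under the WT and the PkmΔDRE label, from edgeR fits of 8 libraries each, with bars for the standard error and filled points for called values; the called values are 4 higher at 8 h, 3 higher and 1 lower at 96 h (WT label) and *Scd1* at 120 h (PkmΔDRE label).

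At 8 h under the WT label the called genes were *Elovl6*, *Acaca*, *Scd1* and *Me1*. *Elovl6* read 16.82, 13.97, 24.08 and 26.69 CPM with vehicle and 27.6, 84.4, 94.17 and 61.35 CPM with TCDD. All TCDD libraries were above all vehicle libraries, a log2 fold change of 1.68 (SE 0.32, edgeR adjusted p = 0.00214). *Acaca* read 32.52, 28.54, 30.64 and 40.61 CPM with vehicle and 52.95, 62.01, 123.6 and 72.33 CPM with TCDD, again without overlap (1.20, SE 0.24, edgeR adjusted p = 0.00237). *Elovl6* and *Acaca* kept their calls under the 8 alternatives run on this comparison and in all 8 fits that left out 1 library.

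*Scd1* and *Me1* at 8 h rested on fewer libraries. *Scd1* read 1672, 1619, 1119 and 1066 CPM with vehicle and 1635, 2211, 9282 and 2047 CPM with TCDD, so that library 3 of the TCDD group stood alone and another lay within the vehicle range. Its log2 fold change of 1.43 (SE 0.51, edgeR adjusted p = 0.0427) fell to 0.49 without that library and the call was lost in 5 of 8 leave-one-out fits. *Me1* read 78.08, 79.88, 90.45 and 100.4 CPM with vehicle and 92.53, 113.1, 241.6 and 143.04 CPM with TCDD, and its change of 0.72 (SE 0.24, edgeR adjusted p = 0.0275) was 0.38 and not called without the same library. The call of *Me1* was lost in 3 of 8 such fits. Both calls were lost when a trend on GC content was removed and in 1 fit of all 72 libraries, and that of *Scd1* also without a filter on low counts. *Fasn* (-0.42, edgeR adjusted p = 0.0327) and *Srebf1* (-0.54, edgeR adjusted p = 0.00682) passed the p threshold at 8 h but not the fold change of 1.5. *Fasn* read 557.1 to 728.1 CPM with TCDD and 731 to 942.4 CPM with vehicle, and *Srebf1* 78.14 to 105.6 and 122.9 to 142.1 CPM. Both were thus lower without overlap, as *Elovl6* and *Acaca* were higher without overlap. At this hour 41.3% of all genes did not overlap in either direction. On library totals *Fasn* changed by -0.23 and *Srebf1* by -0.39. The share of uniquely mapped pairs on no gene was 4.89 to 5.99% in these vehicle libraries and 8.36 to 21.9% in the TCDD libraries, 4 of the 6 macrophage markers tested were called as lower and, of 8 hepatocyte markers, 3 as lower and 1 as higher, and the part of these differences in the 4 calls was not tested beyond the fit with that share as a covariate, in which all 4 were still called.

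At 96 h under the WT label *Scd1*, *Acacb* and *Elovl6* were higher with TCDD and *Fasn* lower. *Scd1* read 274, 119.2, 666.8 and 334.8 CPM with vehicle and 922.5, 1381, 1285 and 1020 CPM with TCDD. The groups did not overlap (log2 fold change 1.79, SE 0.45, edgeR adjusted p = 0.0192), although the call was lost in 2 of 8 leave-one-out fits. *Fasn* read 378.2, 286.5, 351.6 and 317.8 CPM against 201.9, 221.6, 208.1 and 205.5 CPM, all TCDD libraries below all vehicle libraries (-0.61, SE 0.09, edgeR adjusted p = 0.000903), a change that fell under the fold threshold on library totals (-0.57), with the GC trend removed and without vehicle library 1. *Elovl6* read 15.95, 13.09, 14.48 and 12.43 CPM against 23.03, 20.87, 20.5 and 21.81 CPM (0.68, SE 0.12, edgeR adjusted p = 0.00215), again with no overlap. *Acacb* read 17.53, 15.83, 33.89 and 28.3 CPM against 25.65, 50.86, 44.39 and 39.97 CPM, with overlap between the groups (0.81, SE 0.26, edgeR adjusted p = 0.035), and lost its call in 6 of 8 leave-one-out fits. In a fit of all 72 WT-labelled libraries none of the 4 was called (edgeR adjusted p between 0.154 and 0.555). The pairs on no gene were 6.21 to 9.4% with vehicle and 9.08 to 11.8% with TCDD at this hour, and 4 cholangiocyte markers summed to 541 to 1220 CPM and 316 to 686 CPM. With that share as a covariate, or with the GC trend removed, the call of *Elovl6* was lost (edgeR adjusted p = 0.0529 with the covariate). Of macrophage markers 2 of 7 were called as lower with TCDD (sums of 63.9 to 90.2 CPM against 49.1 to 62.5 CPM), as were 2 of the 4 endothelial markers tested (66.7 to 75.9 CPM against 41.4 to 60 CPM), and the part of these marker differences was not tested. TCDD replicate 1 had 63.3% of its gene pairs on one strand and 11.4% unmapped pairs, where the other libraries of this hour under the WT label had 50.4 to 51.5% and 3.46 to 6.61%. Without it and the vehicle replicate 3 that had high *Cyp1a1*, all 4 calls were kept, with *Scd1* at 2.39, *Acacb* at 1.18, *Elovl6* at 0.65 and *Fasn* at -0.59. *Srebf1* was lower with TCDD at 96 h by the p threshold but not the fold threshold. It read 112.25 to 124.7 CPM with vehicle and 80.6 to 90.7 CPM with TCDD, without overlap. The groups did not overlap in either direction for 33.8% of all genes at this hour.

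*Scd1* was the gene that moved under the PkmΔDRE label. It read 100.1, 173.6, 230.4 and 198.1 CPM with vehicle at 120 h and 471.7, 931.2, 792.3 and 422 CPM with TCDD, without overlap (log2 fold change 1.87, SE 0.32, edgeR adjusted p = 0.0359), although the call was lost in 6 of 8 leave-one-out fits and with the covariate. At 72 h it read 580.7, 374.6, 260.6 and 166 CPM against 955.9, 1558, 2005 and 651.8 CPM, also without overlap, and the change of 1.86 (SE 0.43, edgeR adjusted p = 0.0716) missed the threshold in edgeR and passed it in DESeq2 (adjusted p = 0.000483). The groups did not overlap for 6.51% of all genes at 72 h and for 5.2% at 120 h. At 96 h, where vehicle library 4 resembled 4 h, *Scd1* changed by 0.80 with all libraries and by 2.04 without that one (edgeR adjusted p = 0.2), *Fasn* by -1.63 and -0.28, and *Acacb* by -1.52 and 0.17. At 4 h the change of *Scd2* was -3.15 with and -0.26 without the vehicle library that resembled 96 h, and none of these values was called in fits of a single hour. In 1 fit of all 72 libraries of the label, which held both these vehicle libraries, *Scd2* at 4 h and *Fasn* at 96 h were called. Their changes there were -3.15 (edgeR adjusted p = 0.03) and -1.57 (edgeR adjusted p = 0.0266). Cholangiocyte markers summed to 592 to 1100 CPM with vehicle and 458 to 709 CPM with TCDD at 120 h, and their part in the change of *Scd1* was not tested.

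**Figure D4:**
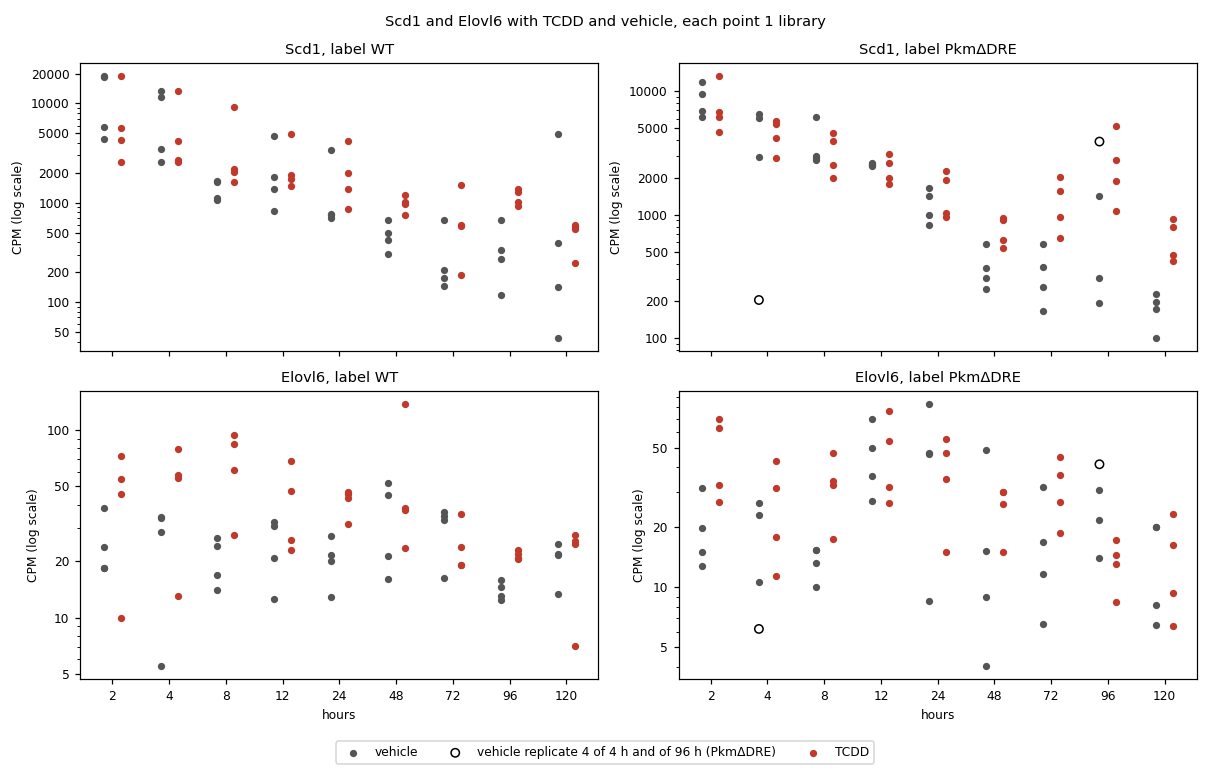
*Scd1* and *Elovl6* (CPM, log axes) in vehicle and TCDD libraries by hour under each genotype label, with 1 point per library and open circles for the 2 vehicle libraries that resembled another hour; TCDD points of *Scd1* lie above all vehicle points at 48 and 96 h (WT label) and at 72 and 120 h (PkmΔDRE label), and those of *Elovl6* at 8, 24 and 96 h (WT label) and 8 h (PkmΔDRE label). Of all genes, 41.3, 9.73, 1.67 and 33.8% did not overlap in either direction at 8, 24, 48 and 96 h (WT label). Under the PkmΔDRE label these shares were 2.09, 6.51 and 5.2% at 8, 72 and 120 h.

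Averaged over hours, 1 fit of the 72 libraries of each label called 1 gene in 3 of the 4 averages. *Elovl6* was higher over 2 to 12 h under the WT label (log2 fold change 0.99, SE 0.23, edgeR adjusted p = 0.00117; 17.8% of all genes called), *Acacb* over 24 to 120 h under the WT label (0.68, SE 0.13, edgeR adjusted p = 0.000286; 3.18% called) and *Scd1* over 24 to 120 h under the PkmΔDRE label (1.18, SE 0.26, edgeR adjusted p = 0.00172; 3.48% called). The *Elovl6* average fell under the fold threshold with the GC trend removed (0.54, edgeR adjusted p = 0.0205). Without the same 5 WT-labelled libraries as above it was 1.07 and the *Acacb* average 0.86, both still called. Without the 2 libraries that resembled other hours the *Scd1* average was 1.42 and was called. Over 2 to 12 h under the PkmΔDRE label edgeR called 0 of 10 (0.479% of all genes) and DESeq2 also called 0. An unadjusted p below 0.05 was found for 3 of the 10 and for 14.3% of all genes. *Elovl6* changed by 0.73 in that average (SE 0.27, edgeR adjusted p = 0.175). *Scd1* over 24 to 120 h under the WT label changed by 0.64 (SE 0.34, edgeR adjusted p = 0.309). Over 2 to 12 h under the WT label 3 genes were lower by the p threshold but not the fold change. They were *Fasn* (-0.35, edgeR adjusted p = 0.0116), *Acly* (-0.41, edgeR adjusted p = 0.00249) and *Srebf1* (-0.33, edgeR adjusted p = 0.00613). On library totals they changed by -0.21, -0.25 and -0.19. *Mlxipl* averaged between -0.15 and -0.02 in the 4 averages and *Acaca* between -0.16 and 0.28, none of them called.

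Whether the response to TCDD differed between labels was tested at each hour by the interaction of label and treatment. By edgeR 0 of 10 interactions were called at any hour, where 0% of all genes were called at 2, 4, 8, 12, 24, 96 and 120 h, 0.00715% at 48 h and 0.00695% at 72 h. At an unadjusted p below 0.05 were 1 of 10 (4 h), 3 (8 h), 3 (96 h) and 1 (120 h). The share of all genes below it was 8.98, 15.9, 13.1 and 3.15% at these hours. The single call by DESeq2 was *Elovl6* at 96 h (-1.78, DESeq2 adjusted p = 0.0485). *Elovl6* at 96 h differed by -1.77 on the log2 scale (PkmΔDRE minus WT label, edgeR adjusted p = 0.253), and by -1.49 without the vehicle library that resembled 4 h, *Scd1* at 8 h by -1.73 (edgeR adjusted p = 0.292) and *Acaca* at 8 h by -1.53 (edgeR adjusted p = 0.292). The 120 h difference of *Scd1*, 3.39 (edgeR adjusted p = 1), was 0.52 without the WT-labelled vehicle library that had 4974 CPM.

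The wider pathway was followed in 45 other genes of fatty acid supply, elongation, desaturation, esterification and their control, a list drawn up with earlier results of these data known. In culture 27 of them were lower and 9 higher at 120 h under the WT label, and 25 and 7 under the PkmΔDRE label. Of all genes 24.5% were called as lower and 33.4% as higher there under the WT label, and 22.7% and 26.8% under the PkmΔDRE label. On library totals the split of the 45 turned to 12 lower and 18 higher, and 14 and 19. *Thrsp*, a cofactor of lipogenic gene expression, fell by 8.25 and 8.68 on the log2 scale and *Elovl2*, an elongase of polyunsaturated fatty acids, fell by 6.13 and 5.83. *Elovl3*, an elongase of very long chains, had 0 counts in all 4 libraries at 120 h under both labels, at least 5560-fold lower (WT label) and at least 6800-fold lower (PkmΔDRE label) than at 2 h against a floor of 3 counts over the group. Those that rose included *Mbtps2*, a protease that activates SREBPs (2.36 and 1.66), and *Prkaa2* and *Prkaa1*, catalytic subunits of AMP kinase, which inhibits acetyl-CoA carboxylase (1.99 and 2.13, and 1.89 and 1.47), and these genes kept their directions and calls on library totals. At the earlier hours 4, 7 and 10 were higher and 17, 19 and 26 lower at 8, 24 and 72 h under the WT label, and 1, 6 and 7 higher and 8, 18 and 22 lower under the PkmΔDRE label. On library totals 11, 21 and 16 were higher and 12, 10 and 14 lower at these hours under the WT label. Under the PkmΔDRE label 8, 16 and 17 were higher and 4, 11 and 13 lower on that scale. The shares of all genes called at these hours with TMM are those given above for the 10 genes.

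With TCDD at 8 h under the WT label 9 of the 44 tested were higher and 8 lower (9 and 5 on library totals), among them *Prkaa2* (1.41), *Mbtps2* (1.38) and *Acsl3*, an acyl-CoA synthetase (1.28), and on the other side *Dgat2*, which makes triglyceride (-0.92), and *Nr1h3*, the liver X receptor alpha gene (-0.89). Of all genes 37.4% were called at that hour, 23.8% as higher and 13.6% as lower. At 96 h under the WT label *Acsl3* was higher (0.63) and *Mid1ip1*, an activator of acetyl-CoA carboxylase (-1.02), *G6pdx*, the first enzyme of the pentose phosphate pathway (-0.78), and *Elovl2* (-0.60) were lower, 1 and 3 of 43 tested (3 and 2 on library totals, where *Elovl2* was not called). There 15.1% of all genes were called, 10.1% as higher and 5% as lower. Averaged over 24 to 120 h under the PkmΔDRE label *Elovl2* (-1.10) and *Mid1ip1* (-0.61) were lower, under the WT label *Dgat2* was higher (0.62), and over 2 to 12 h 3 were higher and 1 lower under the WT label and 0 under the PkmΔDRE label. No interaction, and no difference between labels in vehicle averaged over the hours, was called among the 45 by edgeR.

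Genes whose group means followed those of 3 members most closely over the 36 groups were listed as a description, over 8020 genes with a mean of at least 10 CPM. Nearest to *Fasn* were *Fads1*, the delta-5 desaturase (Spearman's rho 0.981), *Qdpr* (0.977) and *Actg1* (0.977). Nearest to *Scd1* were *Ces1b* (0.965) and *Afm* (0.964), and nearest to *Scd2* were *Tubb2b* (0.958), *Sesn3* (0.958) and *Npdc1* (0.954). Among the 10 genes *Fasn* and *Acly* had a rho of 0.973, *Scd1* and *Scd2* of -0.788 and *Fasn* and *Scd2* of -0.884, and the groups share a course in culture.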

How the data were processed

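RNA-seq libraries of primary mouse hepatocytes (36 groups of 4 by genotype label, treatment and hour) were measured as read counts per gene. Per the labels, the authors trimmed reads with Trimmomatic 0.39, checked them with FastQC 0.11.3, aligned them to GRCm39 with STAR 2.7 and deposited unnormalized counts per Ensembl gene; 16.8 to 48% of each library's read pairs stood on lines that name no gene (unmapped, multimapped, ambiguous or outside genes) and were left out. The unstranded column was used, so that reads of a gene and an overlapping antisense gene cannot be told apart. Symbols, lengths and GC content came from GENCODE M21 (52083 of 55359 genes matched) and promoters from RefSeq, GRCm38.p6.

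Counts were fitted in R 4.3.3 with edgeR 4.0.16 (TMM scaling, filterByExpr with a minimum count of 10 and total of 15, robust quasi-likelihood test, Benjamini-Hochberg adjustment over all genes tested, called at adjusted p below 0.05 and a fold change of 1.5): TCDD against vehicle in 8 libraries per hour and label, the average over early and late hours in 72 libraries per label, the interaction in 16 libraries per hour, and culture hours and labels in vehicle. Standard errors are the absolute log2 fold change over the square root of F. The alternatives were RLE scaling, DESeq2 1.42.0, no low-count filter, no fold threshold, a covariate, GC removal, other libraries in the fit, omitted libraries or hours, and library totals; the scripts were tested on simulated data. Figures used Python 3.11.15 with matplotlib 3.10.9.

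All 10 genes are named. Of 45 other lipogenesis genes, up to 3 called genes with the highest and 3 with the lowest log2 fold change are named in each comparison described, and the 3 genes most correlated with *Fasn*, *Scd1* and *Scd2* over group means. Some items that this rule names are not reported here. The members and lists were chosen with earlier results of these data known, so no list is independent evidence.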

Additional observations from a re-analysis of the deposited data

Results flagged for a closer look

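Levels of the 10 genes were screened for single libraries far from the other 3 of their group, by Dixon's criterion for groups of 4. Of 360 sets of 4 values (10 genes in 36 groups), 35 had such a library, and 25 of the 35 stood on the high side. For independent, normally distributed values 1 in 20, or 18, would be flagged. CPM need not be so distributed and the genes share libraries, so no excess can be read from these counts. The levels are CPM and the range of the other 3 libraries is given in brackets. No cause was tested.

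Replicate 3 of WT-labelled TCDD at 120 h stood apart for 5 genes: *Scd1* 250.2 (549.1 to 591), *Scd2* 25.53 (150.8 to 154.1), *Elovl6* 7.096 (24.81 to 27.62), *Acly* 247.2 (180.6 to 191.3) and *Srebf1* 91.32 (74.17 to 74.91). Replicate 4 of PkmΔDRE-labelled vehicle at 96 h, which resembled 4 h, stood apart for 4: *Fasn* 2048 (247.4 to 409.8), *Acaca* 94.86 (52.24 to 59.29), *Acacb* 260.1 (12.74 to 54.66) and *Acly* 1076 (229.9 to 264.3). Replicate 4 of PkmΔDRE-labelled vehicle at 4 h, which resembled 96 h, had *Scd2* at 92.29 (1.887 to 3.825).

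*Scd1* stood apart most often, in 8 groups. In WT-labelled vehicle it was 3412 in replicate 3 at 24 h (699.5 to 774.8), 675.4 in replicate 3 at 72 h (144.2 to 212.8) and 4974 in replicate 2 at 120 h (43.23 to 396.5). In WT-labelled TCDD replicate 3 it was 13497 at 4 h (2554 to 4190), 9282 at 8 h (1635 to 2211) and 4898 at 12 h (1483 to 1917), and in PkmΔDRE-labelled vehicle replicate 2 at 8 h it was 6216 (2777 to 3018). *Acaca* was also high at 125.4 in WT-labelled vehicle replicate 2 at 120 h (52.33 to 56.38). The TCDD change of *Scd1* at 120 h under the WT label was -1.52 (edgeR adjusted p = 0.61) with that vehicle library and 1.35 without it.

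In the other WT-labelled groups, *Acaca* was 135.6 in TCDD replicate 3 at 72 h (66.64 to 75.82) and *Me1* 751 in the same library (356.9 to 404.5). *Acacb* was 253 in TCDD replicate 4 at 2 h (181.7 to 193.6) and *Me1* 256.7 in TCDD replicate 3 at 2 h (121.96 to 141.6). At 48 h *Me1* was 447.1 in vehicle replicate 1 (329.9 to 337) and 594.7 in TCDD replicate 1 (390.9 to 419.5), a library in which *Elovl6* was 137.1 (23.64 to 38.58), and *Mlxipl* was 57.69 in vehicle replicate 2 (86.55 to 91.7).

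In the other PkmΔDRE-labelled groups, *Fasn* was 1192 in vehicle replicate 4 at 8 h (605.4 to 672.4) and 216.7 in vehicle replicate 2 at 48 h (426.3 to 443.5). In vehicle replicate 1 at 120 h *Scd2* was 55.3 (170.1 to 185.1) and *Me1* 206.1 (247.1 to 249.8). With TCDD, *Acaca* was 46.9 in replicate 4 at 2 h (111.6 to 119.7), *Me1* 154.3 in replicate 2 at 4 h (105.5 to 110.4), *Srebf1* 161 in replicate 1 at 8 h (96.08 to 102.4), *Scd2* 94.97 in replicate 4 at 72 h (195.1 to 215.2) and *Acly* 191.5 in replicate 4 at 96 h (247.6 to 257.4).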

How the results depend on the processing

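Across the 10 genes, RLE scaling and leaving out 5 libraries doubted in an earlier analysis changed no call. Under the WT label the 8 TCDD calls per hour became 5 with a GC trend removed and 3 in 1 fit of all 72 libraries, and lay between 6 and 11 under the other settings. Under the PkmΔDRE label the 1 call became 4 by DESeq2, 2 with the GC trend removed, 6 without a filter on low counts and 2 in 1 fit of 72 libraries. Those 2 were *Scd2* at 4 h and *Fasn* at 96 h, each against a vehicle group with a library that resembled another hour. *Scd1* at 120 h lost its call in that fit. The 3 calls averaged over hours became 2 with the GC trend removed, 5 when the read pairs outside genes entered as a covariate and 6 without the fold threshold. The calls gained without the fold threshold were *Fasn*, *Acly* and *Srebf1* over 2 to 12 h under the WT label, all lower. The 0 interactions became 1 by DESeq2 (*Elovl6*, 96 h), 2 without a filter (*Acaca* and *Scd1*, 8 h) and 2 in 1 fit of all libraries (*Scd2*, 4 h, and *Acacb*, 96 h, each resting on a library that resembled another hour). Leaving out single libraries gave 6 to 9 calls under the WT label, 0 to 3 under the PkmΔDRE label, 30 to 32 of 31 and 19 to 23 of 22 in culture, and 0 to 1 interactions; of 3520 such values 56 lost a call and 13 gained one.

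Scaling by library totals without TMM factors, added after the data were seen, gave 23 and 17 culture calls in place of 31 and 22, of which 20 and 13 were called with TMM too. Of 400 values 43 changed sign, 8 and 15 of them in culture. Among culture values called on either scale it turned the direction of *Srebf1* at 72 h (0.22) and 120 h (0.37) and *Mlxipl* at 72 h (0.033) under the WT label, and under the PkmΔDRE label of *Acaca* at 24, 72 and 120 h (0.035, 0.31 and 0.52), *Me1* at 24 h (0.95), *Mlxipl* at 24 h (0.051) and *Srebf1* at 120 h (0.78). Mean TMM factors rose from 0.658 at 2 h to 1.36 at 120 h in WT-labelled vehicle. By construction these fits differ only in the library size used.

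The number of all genes called stayed within 1.5 times for 40 of 40 comparisons with RLE, 34 with library totals, 33 with the GC trend removed and 17 by DESeq2. DESeq2 gave no adjusted p for *Scd1* at 8 h under the WT label. No paired analysis was possible because replicate numbers were given in accession order and the labels tie no libraries across groups. *Scd1* was highest in replicate 3 in 14 of 18 WT-labelled groups, *Mlxipl* in 13, *Acaca* in 12 and *Me1* in 10. Under the PkmΔDRE label *Mlxipl* was highest in replicate 1 and *Me1* in replicate 2, in 11 of 18 groups each. For the other genes and labels no replicate was highest in more than 9. Unmapped pairs at 2 h under the WT label were 13.7, 14.5, 8.07 and 9.31% in vehicle replicates 1 to 4. With TCDD they were 12.7, 12.2, 7.44 and 10.4%. Whether libraries at the same place in that order share a source was not tested. Depth limits *Scd2* most, which had as few as 8 read pairs in a library at early hours.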
